A study of Mus musculus with 12 samples.

Results

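The genes described here are 8 small leucine-rich proteoglycans, Dcn (decorin), Bgn (biglycan), Aspn (asporin), Fmod (fibromodulin), Lum (lumican), Prelp, Omd (osteomodulin) and Ogn (osteoglycin, also called mimecan). They were taken by name, with every probe set that the array's annotation assigns to that symbol alone. This gave 19 of the 45101 probe sets on the array, for 8 of the 18194 genes with a probe set of their own. Fmod had 6 probe sets, Bgn 3, Dcn, Aspn, Prelp and Ogn 2 each, and Lum and Omd 1 each. For each gene the probe set with the highest mean over the 12 arrays is the one reported unless another is named. All 19 passed the variance threshold of 0.05 that was set for the SRA comparisons, so every gene was tested.

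Steroid receptor RNA activator (SRA) is an RNA that works with nuclear receptors as a coactivator, and the study asked how it acts in adipocytes. Gene expression was measured on Affymetrix mouse genome arrays in 4 groups of 3 arrays. ST2 SRA adipocytes came from ST2 cells, a marrow-derived stromal line (strain BC8 in the labels), that carried human SRA in the retroviral vector pMSCV. ST2 control adipocytes carried the empty pMSCV. 3T3-L1 shSRA adipocytes came from the 3T3-L1 preadipocyte line (Swiss albino) and carried a short hairpin against SRA in the retroviral vector pSuperior. 3T3-L1 shControl adipocytes carried pSuperior with a control hairpin in the design text, whereas their sample labels call them empty vector. All 4 groups received the same cocktail of isobutylmethylxanthine, dexamethasone, insulin and troglitazone, a PPARγ ligand, and were harvested at day 4 of differentiation for ST2 and day 8 for 3T3-L1 cultures. The lines were also kept in different media before differentiation. Line, day, medium, strain and vector therefore cannot be told apart in the comparison of the lines. Each arm is a drug-selected transduced culture of a cell line. The labels call the 3 arrays of a group biological replicates but do not say that they came from separate transductions, so the p-values measure the spread between these cultures.

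Small leucine-rich proteoglycans are secreted proteins of the extracellular matrix, built from a core of leucine-rich repeats that in most members carries glycosaminoglycan chains. Decorin and biglycan carry chondroitin or dermatan sulfate, fibromodulin and lumican carry keratan sulfate, and asporin carries none of these chains. Most of them bind fibrillar collagen and set the width and spacing of its fibrils, and decorin, biglycan, asporin and fibromodulin also bind TGF-β. Fibroblasts and preadipocytes are known as their main source in fat, and decorin is used as a marker of such cells. Several members lie side by side in the mouse genome. In the RefSeq annotation Dcn and Lum are neighbours on chromosome 10, Aspn, Omd and Ogn follow each other on chromosome 13, Prelp and Fmod are neighbours on chromosome 1 and Bgn lies on chromosome X.

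The 3 genes on chromosome 13 are shown by their promoters, because they share a neighbourhood and a strand and yet differed in how they were expressed in the lines (given further on). The sequences are RefSeq's for build GRCm38.p6, 250 bases before and 50 bases from the gene start, on the plus strand at chr13:49544193-49544492 for Aspn, chr13:49582212-49582511 for Omd and chr13:49607765-49608064 for Ogn. Capitals mark matches on either strand to 3 motifs. The box that places the start of many genes was searched as TATAAA. The motif bound by NF-Y was searched as CCAAT. The motif bound by AP-1 was searched as TGANTCA.
Aspn: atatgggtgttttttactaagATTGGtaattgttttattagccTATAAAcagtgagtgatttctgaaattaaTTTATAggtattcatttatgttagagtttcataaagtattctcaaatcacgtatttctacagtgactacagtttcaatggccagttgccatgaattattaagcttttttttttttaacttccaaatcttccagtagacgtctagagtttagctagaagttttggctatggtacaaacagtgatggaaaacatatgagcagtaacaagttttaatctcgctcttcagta
Omd: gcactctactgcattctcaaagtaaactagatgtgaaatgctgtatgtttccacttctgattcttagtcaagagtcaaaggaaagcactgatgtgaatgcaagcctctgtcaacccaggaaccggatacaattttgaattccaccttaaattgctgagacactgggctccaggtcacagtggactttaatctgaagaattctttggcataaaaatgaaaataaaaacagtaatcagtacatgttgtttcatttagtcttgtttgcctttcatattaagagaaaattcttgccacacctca
Ogn: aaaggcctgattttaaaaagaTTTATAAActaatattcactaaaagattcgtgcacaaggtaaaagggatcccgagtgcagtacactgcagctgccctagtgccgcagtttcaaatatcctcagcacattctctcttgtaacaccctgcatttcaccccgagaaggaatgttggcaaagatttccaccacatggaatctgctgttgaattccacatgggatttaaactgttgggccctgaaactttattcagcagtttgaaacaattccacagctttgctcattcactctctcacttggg
TATAAA was matched 2 times in the Aspn window and 2 times, overlapping on opposite strands, in the Ogn window, and CCAAT was matched 1 time in that of Aspn. The Omd window held none of the 3. TATAAA is present in 13.6% of 32851 mouse promoters of this length, CCAAT in 37.4% and TGANTCA in 7.81%. A match is a description of the letters only. The promoter table held 6 of the 8 genes. Dcn and Lum were not among them.

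The median log2 value was 6.45 to 6.53 on every array. ST2 control replicate 2 stood apart. On it 14314 bright probe sets lay a median 0.43 log2 units below their mean over the other arrays of its group. The same deviation was -0.07 to 0.24 on the other 11 arrays. Of these, ST2 control replicates 1 (0.24) and 3 (0.18) were measured in part against ST2 control replicate 2. Calls of the 8 genes and counts of the gene lists that change without this array are given both ways. The targeted gene, Sra1, was 9.46, 9.20 and 9.62 on the shSRA arrays and 11.86, 11.67 and 11.84 on the shControl arrays, a log2 difference of -2.36 (SE 0.18, adjusted p = 5.58e-07). In ST2 SRA and ST2 control adipocytes it differed by 0.22 (adjusted p = 0.484), but this mouse probe set does not check a human transgene. The adipocyte markers measured, among them Adipoq (adiponectin, mean 14.63 over the 12 arrays) and Lpl (lipoprotein lipase, 14.79), gave strong signals in both lines. The exception was Lep (leptin), which was low at 4.53. With all arrays in the fit, no marker of macrophages and blood cells or of endothelium was called in any comparison. In the SRA comparisons only 2 of 7 macrophage and blood markers and 0 of 6 endothelial markers passed the variance threshold. The rest could not be called there. Without ST2 control replicate 2 only 1 endothelial marker was called, as lower in ST2 control than in shControl adipocytes.

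The comparison of the lines asks where the genes stood without an imposed change in SRA. Sra1 itself was lower in ST2 control than in 3T3-L1 shControl adipocytes, with a difference of -0.78 (SE 0.16, adjusted p = 0.00145). The level of SRA is therefore another factor that cannot be told apart from the line. Dcn, Aspn and Lum were 38.4 to 78.4 times lower in ST2 control than in 3T3-L1 shControl adipocytes, while Bgn and Ogn did not differ beyond their spread and Omd was higher in ST2. In all, 6 of the 8 genes were called at an adjusted p under 0.05, 5 lower and 1 higher in ST2, where 27.7% of all 45101 probe sets were called. The median log2 difference of the 8 genes was -0.75, against -0.02 over all 18194 genes.

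Dcn, which binds collagen and TGF-β, had values of 6.72, 6.84 and 6.13 on the ST2 control arrays and 12.57, 12.95 and 13.05 on the shControl arrays. The line difference was -6.29 (SE 0.23, adjusted p = 3.45e-11). Aspn, a close relative of decorin that binds collagen and restrains TGF-β, had 4.38, 4.53 and 4.10 in ST2 control and 10.16, 10.33 and 10.34 in shControl adipocytes. Its groups were separated by more than 5 log2 units, with a difference of -5.94 (SE 0.15, adjusted p = 1.2e-12), and its other probe set gave -5.44. Lum, a keratan sulfate proteoglycan first known from the cornea, had 5.87, 5.38 and 5.40 in ST2 control and 10.29, 10.88 and 11.26 in shControl adipocytes. The Lum difference was -5.26 (SE 0.27, adjusted p = 1.36e-09). In each of the 3 genes all 6 ST2 arrays, SRA and control, lay below all 6 3T3-L1 arrays. RMA values carry no detection call, so a low ST2 value cannot be told from no expression, and the folds hold only as ratios of these values. The other probe set of Dcn was low on every array, at 4.89 to 5.62, and differed by only -0.43 (adjusted p = 0.0109), and the mean of both probe sets gave a line difference of -3.36.

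Fmod and Prelp were lower in ST2 by much less. Fmod, which binds collagen at the site that lumican also uses, spanned 6.18 to 6.82 in ST2 control and 6.91 to 7.61 in shControl adipocytes, a difference of -0.87 (SE 0.19, adjusted p = 0.00246). The 6 probe sets all had lower means in ST2 control, with differences of -2.14 to -0.49, of which 5 were called. Prelp, whose basic end binds heparin and basement membranes, spanned 8.15 to 9.31 in ST2 control and 9.31 to 9.39 in shControl adipocytes, and these ranges overlapped. Its difference of -0.63 (SE 0.22, adjusted p = 0.0421) was -0.35 (adjusted p = 0.165) without ST2 control replicate 2. The call was lost in 10 of 22 alternative fits, several of which left out an array of another group. The other Prelp probe set, with no overlap, differed by -0.92 (adjusted p = 0.000322).

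Omd was the only one of the 8 to be called higher in ST2. Osteomodulin, a keratan sulfate proteoglycan of mineralized tissue, had 5.86, 5.76 and 5.81 in ST2 control and 5.04, 4.84 and 4.90 in shControl adipocytes, a difference of 0.88 (SE 0.14, adjusted p = 0.00014). These are low values on this scale. Bgn, a partner of decorin that also signals through Toll-like receptors, had 13.30, 12.94 and 13.40 in ST2 control and 13.24, 13.37 and 13.45 in shControl adipocytes. Ogn had 11.72, 11.15 and 11.55 against 10.86, 11.70 and 11.44. The ranges of both genes overlapped between the lines, and their differences were -0.14 (95% interval -0.42 to 0.13) for Bgn and 0.14 (-0.27 to 0.55) for Ogn.

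**Figure D1:**
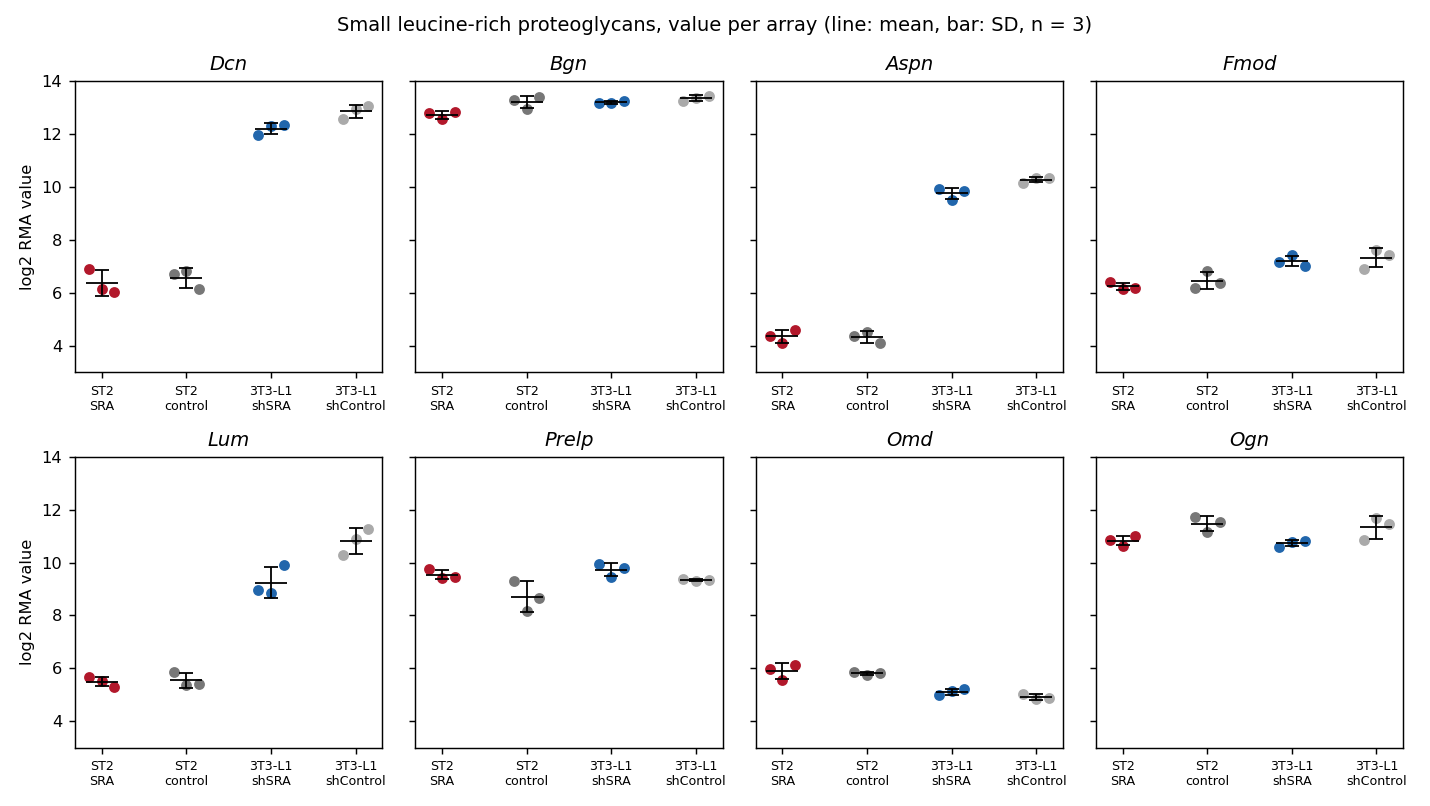
Log2 RMA values of the 8 genes on each of 12 arrays (vertical axis) by group (horizontal axis), with points for arrays, a line for the group mean and a bar for the SD of 3 arrays. Dcn, Aspn and Lum lie between 4.10 and 6.91 on every ST2 array and between 8.84 and 13.05 on every 3T3-L1 array, whereas Bgn and Ogn overlap between ST2 control and 3T3-L1 shControl. Heights of different genes are not comparable, since each probe set has its own brightness.

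Neighbours on a chromosome differed sharply in the line difference. On chromosome 10 it was -6.29 at Dcn and -5.26 at Lum, 0.13 at Kera and -0.02 at Epyc, which are other members of the family, and 0.59 at Atp2b1, a calcium pump gene (adjusted p = 0.00413). On the near side of Dcn, Btg1 differed by -0.03, and the model between them, Gm46240, had no probe set. On chromosome 13 the difference was 0.12 at Ecm2, -5.94 at Aspn, 0.88 at Omd and 0.14 at Ogn. The genes on either side, Cenpp (0.45, adjusted p = 0.0394) and Nol8 (-0.22), and those beyond, Ippk (-0.29) and Iars (-0.12), did not resemble Aspn. On chromosome 1 Prelp and Fmod were both lower in ST2, with -0.16 at Optc before them and 0.45 at Btg2 after them, neither called. On chromosome X the difference was -0.73 at Haus7 (adjusted p = 0.00234), -0.14 at Bgn and 0.26 at Atp2b3. Differences as large as those of Dcn, Lum and Aspn were found at none of the other genes shown, and Omd and Ogn, next to Aspn, did not share its pattern. Kera, Epyc and Ecm2 had low means over the 12 arrays, at 4.06, 3.94 and 4.87. Without a detection call it cannot be told whether they were expressed in either line, so their small differences say little.

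**Figure D2:**
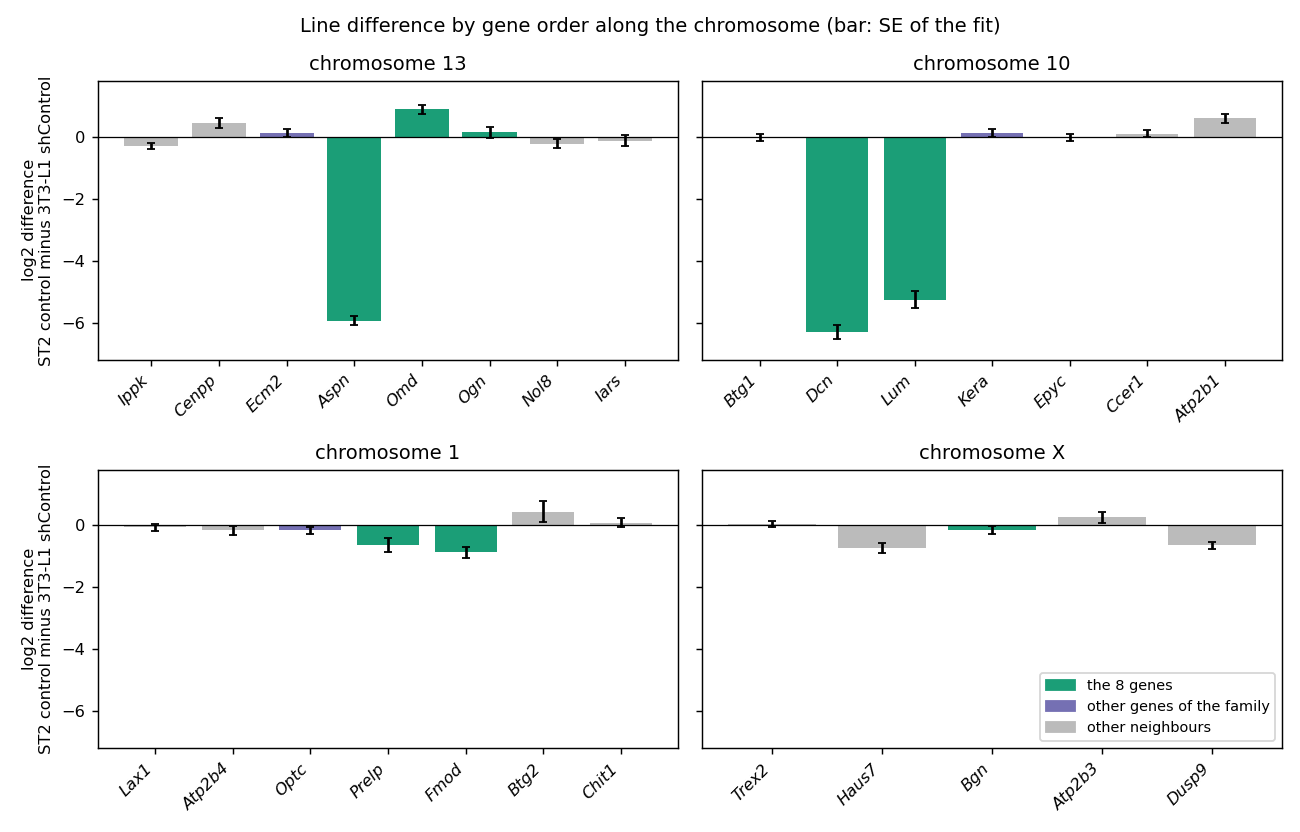
Log2 difference of ST2 control minus 3T3-L1 shControl adipocytes (vertical axis) for the 8 genes and the genes around them in chromosomal order (horizontal axis), with the SE of the fit. The bars reach -6.29 at Dcn, -5.26 at Lum and -5.94 at Aspn, and all other bars lie between -0.87 and 0.88. Some short bars belong to probe sets of low value, such as Kera, Epyc and Ecm2 (means of 4.06, 3.94 and 4.87 over the 12 arrays).

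With SRA overexpression in ST2 adipocytes, Prelp rose and Bgn and Ogn were lower on all arrays, without passing the test at the probe sets of highest mean. Of the 8 genes, 1 was called, where 7.98% of 19068 tested probe sets were. The median difference of the 8 genes was -0.12, against 0.06 over all genes. Dcn, Aspn, Lum, Fmod and Omd had differences between -0.21 and 0.08, with overlapping ranges.

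Prelp had 9.74, 9.42 and 9.46 on the ST2 SRA arrays and 9.31, 8.15 and 8.67 on the ST2 control arrays. Every SRA array lay above every control array, a difference of 0.83 (SE 0.22, adjusted p = 0.0225), or 1.77-fold. The other probe set rose by 0.68 (SE 0.18, adjusted p = 0.0191). The call was lost in 5 of 22 alternative fits. Without ST2 control replicate 2 the difference was 0.55 (adjusted p = 0.0806), and without ST2 SRA replicate 1 it was 0.73 (adjusted p = 0.111). It was also lost without ST2 SRA replicate 2 (adjusted p = 0.0575), without ST2 control replicate 3 (adjusted p = 0.0658) and without the variance filter (adjusted p = 0.0544).

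Bgn had 12.79, 12.55 and 12.84 in ST2 SRA and 13.30, 12.94 and 13.40 in ST2 control adipocytes, with no overlap. Its difference of -0.49 (SE 0.16, 95% interval -0.82 to -0.15) gave an adjusted p of 0.071. The other probe sets gave -0.60 (adjusted p = 0.0382) and -0.45 (adjusted p = 0.0979), so the call depended on the probe set. Ogn, a keratan sulfate proteoglycan in the cornea, had 10.87, 10.63 and 10.99 in ST2 SRA and 11.72, 11.15 and 11.55 in ST2 control adipocytes, again with no overlap. Its difference was -0.64 (SE 0.20, adjusted p = 0.0557), and the other probe set gave -0.64 (adjusted p = 0.0416). Without ST2 control replicate 2 both genes were called, at -0.62 for Bgn (adjusted p = 0.00411) and -0.81 for Ogn (adjusted p = 0.0185), so that the count was 2 in place of 1 and held other genes.

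With SRA knockdown in 3T3-L1 adipocytes, Lum fell and Dcn, Aspn and Ogn were lower without passing the test. Lum was the 1 gene called of the 8, where 0.0734% of 19068 tested probe sets were, 14 in all. The median difference of the 8 genes was -0.34, against -0.01 over all genes.

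Lum had 8.97, 8.84 and 9.91 on the shSRA arrays and 10.29, 10.88 and 11.26 on the shControl arrays, with no overlap. The difference was -1.57 (SE 0.26, 95% interval -2.11 to -1.03, adjusted p = 0.0173), or 2.97-fold lower. The call was lost, with the direction kept, in 10 of 23 alternative fits, with adjusted p of up to 0.269. The arrays whose absence ended it were ST2 control replicate 2 (adjusted p = 0.0761), shSRA replicates 1 and 2 and shControl replicates 2 and 3 (highest adjusted p = 0.168). With overexpression in ST2 its difference was -0.05 (SE 0.26). The difference of the 2 comparisons was 1.52 (SE 0.36, adjusted p = 0.0281), where 2.32% of tested probe sets were called, and it was 1.44 (adjusted p = 0.0669) without ST2 control replicate 2. No other gene of the 8 was called for that difference. All 6 ST2 values of Lum lay between 5.31 and 5.87, in the low part of its range, where a value cannot be told from no expression. A fall could hardly show there, whereas a rise could. SRA was raised in ST2 and lowered in 3T3-L1, so opposite responses to the 2 changes would also give a difference. This test therefore does not separate the effects of SRA in the 2 lines.

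Same-numbered 3T3-L1 arrays deviated together, so the knockdown was also fitted with their numbers as a block (the replicate block). It raised the calls over all probe sets to 101, and Lum was again the only gene of the 8 called (adjusted p = 5.45e-07). Dcn had 11.96, 12.28 and 12.35 on the shSRA arrays and 12.57, 12.95 and 13.05 on the shControl arrays, a difference of -0.66 (SE 0.23, adjusted p = 1 over all probe sets, unadjusted p = 0.00907). With the block its adjusted p was 0.0538, and in a fit of the 3T3-L1 arrays alone with the block it was 0.0188. Aspn had 9.92, 9.51 and 9.85 against 10.16, 10.33 and 10.34, a difference of -0.52 (SE 0.18, adjusted p = 0.978), without a call under the block (adjusted p = 0.283). Ogn had 10.60, 10.79 and 10.83 against 10.86, 11.70 and 11.44, a difference of -0.59 (SE 0.20, adjusted p = 1), again without a call under the block (adjusted p = 0.0983). In each of the 3 genes every shSRA array lay below every shControl array at these probe sets. The other Ogn probe set gave -0.61, again with no overlap, whereas those of Dcn (0.04) and Aspn (-0.21) overlapped. For Prelp the order was the other way, with 9.93, 9.46 and 9.81 against 9.39, 9.31 and 9.34 (difference 0.39, SE 0.22, adjusted p = 1). The other Prelp probe set differed by 0.16, with overlap. How many of all probe sets were separated in this way was not counted in either SRA comparison. Bgn, Fmod and Omd differed by -0.16, -0.12 and 0.19, with overlapping ranges.

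**Figure D3:**
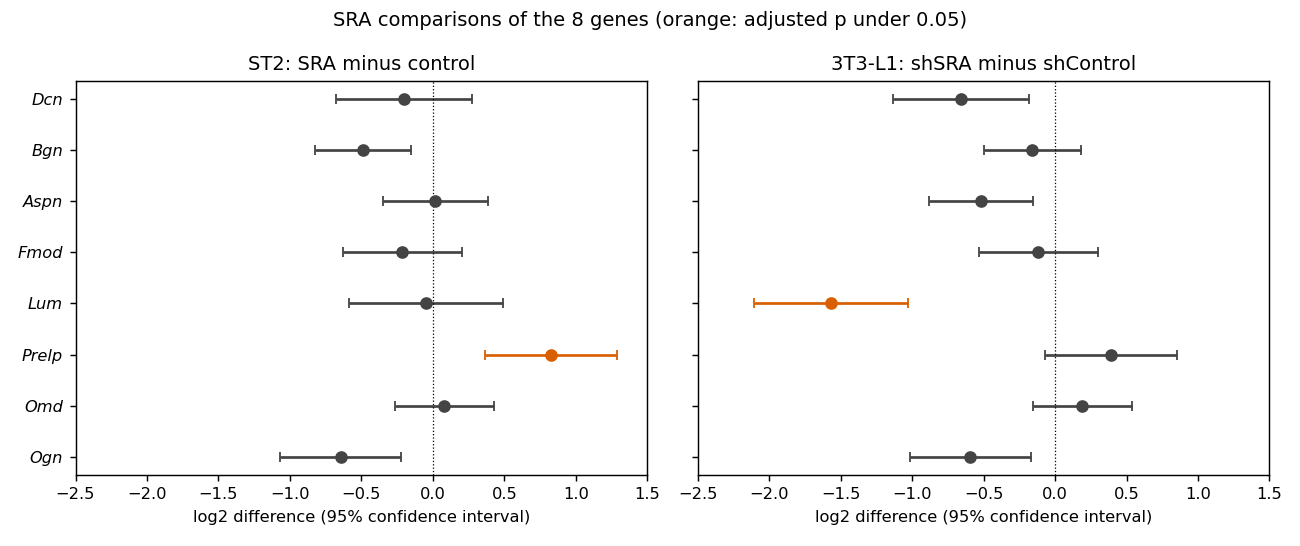
Log2 difference with its 95% interval (horizontal axis) for the 8 genes (vertical axis) in ST2 SRA minus ST2 control adipocytes (left) and in 3T3-L1 shSRA minus shControl adipocytes (right), with genes called at an adjusted p under 0.05 in orange. Prelp at 0.83 is called on the left and Lum at -1.57 on the right.

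Over the 4 groups, the order of levels of each gene can be read from these values. Dcn, Aspn and Lum were highest in shControl, then in shSRA, with no overlap, and lowest in the ST2 groups, which overlapped each other. Fmod was higher in the 3T3-L1 groups than in the ST2 groups, with overlap within each line, and Omd had the opposite order. Bgn was lowest in ST2 SRA, below each other group, and its other 3 groups ran from 13.19 in shSRA through 13.21 in ST2 control to 13.35 in shControl, all overlapping one another. Ogn averaged 10.74 ± 0.12 in shSRA and 11.33 ± 0.43 in shControl, and 10.83 ± 0.18 in ST2 SRA and 11.47 ± 0.29 in ST2 control (SD, n = 3 each). Prelp was highest in shSRA, at 9.74 ± 0.25, which overlapped ST2 SRA at 9.54 ± 0.17, and lowest in ST2 control, at 8.71 ± 0.58.

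Some pairs of the genes moved alike within a line. After each line's mean was subtracted, over 12 arrays that share 4 groups, Bgn and Ogn correlated at r = 0.85. Dcn and Lum correlated at 0.74 and Aspn and Lum at 0.72, while Prelp and Fmod correlated at -0.63. These pairs were not separate groups. Ogn also correlated with Lum (0.64), Dcn (0.55), Aspn (0.45) and Fmod (0.40), and inversely with Prelp (-0.45) and Omd (-0.24). Probe sets of a gene agreed closely for Bgn (r = 0.98 and 0.99), Ogn (0.99) and Prelp (0.90), and less for Fmod (0.06 to 0.70), Aspn (0.28) and Dcn (0.02). Among 8182 genes, those most like Bgn were Pxylp1, which acts on the xylose of the chain's linkage region (r = 0.97), Chd3 (0.97) and Col1a2, a chain of type I collagen (0.96). Those most like Ogn were Lox, which crosslinks collagen (0.94), Sned1 (0.94) and Maf (0.94). Closest to Lum were Spatc1 (0.87), Tex19.1 (0.86) and Sra1 itself (0.86), and closest to Prelp were Smim11 (0.97), Mtus1 (0.96) and Fmc1 (0.96). The nearest gene to Dcn was Nipsnap1 (0.82), to Aspn Mfap4, a microfibril protein (0.82), to Fmod Gm12185 (0.94) and to Omd 4632415L05Rik (0.84). These values are descriptions, since the arrays share their groups and the array that stood apart.

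Of the genes that work with these proteoglycans, some were called with SRA overexpression and none in the knockdown. Over all 19068 tested probe sets 5.65% were called lower and 2.33% higher with overexpression, so most calls were lower there too. The lists are described by their counts and were not tested against that share. Counts are out of the genes measured, and genes below the variance threshold could not be called in the SRA comparisons. Those tested were 12 of 14 collagens, 8 of 13 proteases and 14 of 18 growth factors and receptors. Of 25 other proteoglycans 16 were tested. Of 14 fibrillar and associated collagens, 3 fell in ST2 SRA adipocytes, with differences of -1.95 for Col3a1, -1.47 for Col1a1 and -0.68 for Col1a2 (adjusted p = 8.69e-07, 0.000154 and 0.0112), with a median of -0.20 over the list. Without ST2 control replicate 2, 5 fell. Of 13 proteases that cut or process matrix, 6 fell, or 5 without that array, among them Mmp13 (-1.71, adjusted p = 2.29e-05), Adamts4 (-1.13, adjusted p = 0.00334), Pcolce, an enhancer of procollagen processing (-1.12, adjusted p = 0.000935), and Mmp14 (-0.95, adjusted p = 0.000866). Of 18 measured growth factors and receptors that these proteins bind, 5 fell, with Tgfb3 at -1.26, Ccn2 at -1.13, Lrp1 at -1.08 and Tgfb2 at -0.996 (adjusted p = 6.87e-05, 0.00749, 0.000352 and 0.000403), and 8 fell without that array. Among 25 other proteoglycans 8 fell and 1 rose, with Gpc6 at -0.95, Sdc1 at -0.83, Cd44 at -0.77 and Sdc4 at -0.74 (adjusted p = 0.00108, 0.00247, 0.0104 and 0.00661). Ncan was the one that rose, by 0.74 (adjusted p = 0.00773). Of 34 measured genes that build, sulfate or supply the glycosaminoglycan chains, 21 were tested and 1 fell. This was the sulfotransferase gene Chst2, at -1.03 (adjusted p = 0.00247), and 4 fell without that array. None of the 8 other family members measured passed the variance threshold. The difference of the SRA comparisons was called for 1 collagen (Col3a1, -1.85, adjusted p = 0.000253), 3 proteases, 3 growth factors or receptors, 1 other proteoglycan and 1 chain gene. Without ST2 control replicate 2 it was called for 2 collagens, 4 proteases, 6 growth factors or receptors, 5 other proteoglycans and 2 chain genes.

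Between the lines the partners differed both ways, as did all 45101 probe sets, of which 11.2% were called higher and 16.6% lower in ST2 control. Of the 34 chain genes 9 were higher and 8 lower in ST2 control, with Chst15 at 3.41, Chst2 at 2.93, Papss2 at -2.40 and Chst12 at -1.64 (adjusted p = 9.53e-09, 2.73e-08, 3.21e-09 and 5e-06). Papss2 makes the sulfate donor. Of the 14 collagens 3 were higher and 5 lower, from Col11a1 at -2.69 to Col6a3 at 1.12, whereas Col1a1 and Col3a1 differed by only -0.67 and -0.54. Mmp13 was higher in ST2 by 8.52 and Mmp2 lower, at -4.82. Among growth factors Ccn2 was higher by 6.66 and Tgfb3 by 2.67. Among other proteoglycans Prg4, lubricin, was higher by 4.18 and Vcan, versican, by 2.03, while Gpc4 was lower, at -2.25. Counts higher and lower were 9 and 4 of 18 growth factors and receptors, 5 and 3 of 13 proteases and 7 and 5 of 25 other proteoglycans. Without ST2 control replicate 2 they were 10 and 3, 5 and 2, and 7 and 4, with 10 and 7 chain genes and 5 and 4 collagens.

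Some markers of cell state were called with SRA overexpression and between the lines, and none in the knockdown. The summed linear values of 12 preadipocyte and fibroblast markers were, on the log2 scale, 14.75 to 15.07 in ST2 SRA and 15.19 to 15.62 in ST2 control adipocytes. Such sums are weighted to the brightest probe sets, here Vim (14.04 in ST2 control) and Fn1 (13.87), neither of them called with overexpression. Of the 12 markers 4 fell there (S100a4 at -1.45, Pdgfra at -1.25, Pdgfrb at -0.90 and Acta2 at -0.80). The sums were 14.53 to 14.68 in shSRA and 14.69 to 14.72 in shControl adipocytes, where no marker was called. The sums of 13 adipocyte markers were 17.22 to 17.29 in ST2 SRA and 16.74 to 17.16 in ST2 control, with 3 of 13 higher, and 17.68 to 17.76 in shSRA and 17.56 to 17.74 in shControl adipocytes, with none called. Between the lines 8 of the 13 adipocyte markers were lower in ST2 control (7 without ST2 control replicate 2), with Slc2a4 at -2.81 and Retn at -2.66. Of the 12 fibroblast markers 4 were higher and 3 lower in ST2 control. The largest differences were those of Dlk1 (-6.46), Thy1 (-4.35), S100a4 (2.67) and Pdgfrb (1.71). In the SRA comparisons 9 of the 13 adipocyte and 10 of the 12 fibroblast markers passed the variance threshold and were tested. Of 10 osteoblast, chondrocyte and tendon markers, 4 were tested in the SRA comparisons and none was called. Between the lines 2, Comp (-0.95) and Mkx (-0.71), were lower in ST2 control. Without ST2 control replicate 2, 1 was lower with overexpression and 1 between the lines. RMA values have no zero, so no marker could be called absent. The part of these shifts in the results above was not tested, and in these bulk cultures fewer cells of a type and less RNA per cell cannot be told apart.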

How the data were processed

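Per the labels and the study's methods, the authors hybridised RNA of 12 cultures to Affymetrix mouse genome arrays and made log2 values by robust multi-array average (RMA), which corrects background, equalises the arrays' distributions and summarises each probe set. Tools named in the submitters' processing notes are affy, limma and RMA, with versions not given in the sources used here. The deposited file holds these log2 values with no detection call, so the number of arrays sets the precision. RMA can compress low differences and equalises global shifts.

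In R 4.3.3 with limma 3.58.1, all 12 arrays entered 1 linear model with a mean for each of the 4 groups. SRA comparisons used the 19068 probe sets with variance above 0.05, and the line difference used all 45101, since that threshold selects probe sets that differ between lines. Each comparison was adjusted alone (Benjamini-Hochberg, 0.05) and a gene is called where the adjusted p is lower. Of all probe sets 34958 had 1 gene symbol, 932 several and 9211 none. Of the 11 gene lists, 1 probe set a gene was used, the one of highest mean.

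The members and gene lists were chosen with earlier results of these data known. Genes named are the 8 members, up to 4 called genes of each list with the largest difference, the 3 genes most like each member, chromosomal neighbours and Sra1. Adipoq, Lpl and Lep were named after their values were seen. The steps were tested on simulated arrays. Same-numbered 3T3-L1 arrays correlated in their deviations from group means (r = 0.587, 0.586 and 0.382), and ST2 arrays only in part (0.039, 0.268 and 0.527), so the numbers were taken to pair 3T3-L1 arrays only. Alternatives tried are another normalization, filter, prior, array weights, replicate block, probe set choice, nested F classification and leaving out each array. A fit of the 3T3-L1 arrays alone with the block and list counts without ST2 control replicate 2 were added after seeing the data.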

Additional observations from a re-analysis of the deposited data

Results flagged for a closer look

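The Lum result was picked out because its SRA comparisons differed by a test. Its log2 difference with SRA overexpression in ST2 adipocytes minus that with SRA knockdown in 3T3-L1 adipocytes was 1.52 (limma, adjusted p = 0.0281), with -0.05 in the first comparison and -1.57 in the second. It was no longer called in 12 of 21 alternative fits, with adjusted p of up to 0.103. Lum lay between 5.31 and 5.87 on all 6 ST2 arrays, where a value cannot be told from no expression. A fall could hardly show in ST2, whereas a rise could. SRA was raised in ST2 and lowered in 3T3-L1, so opposite responses to the 2 changes would also give a difference. The test therefore does not separate the effects of SRA in the 2 lines.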

How the results depend on the processing

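Direction and call of the large line differences held, but not every size. Dcn, Aspn, Fmod, Lum and Omd kept their direction and call in every alternative that tested them, while the line call of Prelp was lost in 10 of 22. The line difference of Dcn ranged from -6.70 to -3.36, the last with the mean of its probe sets, and that of Fmod from -2.14, with its probe set of highest variance, to -0.72. The SRA comparisons were not stable in their counts. Of the 8 genes, overexpression called 0 without the variance filter, 3 with a second quantile normalization, with arrays centred on bright probe sets, with array weights (whose estimation did not converge), with a mean trend in the prior and with the replicate block, 2 with the probe set of highest variance, with the mean of a gene's probe sets and with nested F classification, and 0 to 2 with 1 array left out. The knockdown called 0 without the filter, with a mean of at least 6 in its place (where Omd was not tested), with a second quantile normalization, with bright centring and with only the 2 groups compared, 2 with array weights, with nested F classification and in the 3T3-L1 arrays alone with the replicate block, and 0 to 1 with 1 array left out. The difference of the comparisons called 0 without the filter, with that mean, with a second quantile normalization and with bright centring, 4 with array weights, and 0 to 1 with 1 array left out. The cause was not tested. The replicate block gave 3, 1, 6 and 1 calls in overexpression, knockdown, line and difference, and changed no call in the last 3. In overexpression it added Bgn (adjusted p = 0.0218) and Ogn (adjusted p = 0.00408). There same-numbered arrays deviated together only in part (r = 0.039, 0.268 and 0.527) and were not taken as pairs. Over all probe sets the block gave 3023 calls in place of 1522, 101 in place of 14 and 1015 in place of 442.

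Signs turned only in values without a call. With array weights Dcn and Lum in overexpression were 0.30 and 0.12, Bgn between the lines 0.0047, and Fmod and Ogn in the difference of the comparisons 0.13 and 0.042. With a second quantile normalization Aspn in overexpression was -0.0088 and Bgn between the lines 0.029, and with bright centring Aspn was -0.059. With the probe set of highest variance Fmod was 0.064 in overexpression and 0.20 in the difference, and with the mean of its probe sets 0.013 and 0.082. With 1 array left out, overexpression ranged from -0.10 to 0.14 for Aspn, -0.13 to 0.11 for Lum and -0.040 to 0.25 for Omd, the knockdown from -0.32 to 0.028 for Fmod, the line difference from -0.10 to 0.32 for Ogn, and the difference of the comparisons from -0.24 to 0.11 for Fmod, -0.23 to 0.058 for Omd and -0.23 to 0.18 for Ogn. Over all probe sets, calls in overexpression numbered 7327 with array weights, 2751 with bright centring, 2549 with a second quantile normalization, 1008 with nested F classification and 994 with only the 2 groups, and calls in the knockdown 90 with array weights or nested F classification and 3 to 6 without the filter, with the mean threshold, with either renormalization or with only the 2 groups. With 1 array left out, they numbered 749 to 2259 and 5 to 17. The difference of the comparisons had 3154 calls with array weights, 810 with bright centring, 767 with a second quantile normalization and 237 to 1030 with 1 array left out, against 442.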
